A study of Mus musculus with 12 samples.

Results

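The genes described here are both corticosteroid receptors of the mouse, Nr3c1 (glucocorticoid receptor) and Nr3c2 (mineralocorticoid receptor), and 8 genes known to be induced through them, Fkbp5, Tsc22d3, Sgk1, Zbtb16, Errfi1, Cdkn1a, Mt1 and Mt2. They were taken as every probe set (a group of short oligonucleotides that reports 1 transcript) that the annotation of the array assigns to 1 of these symbols, which gave 25 probe sets for 10 genes, out of 12323 genes measured. Of the 25 probe sets, 21 passed the filter on dim signals, and every gene kept at least 1 of them.

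Corticosterone, the main glucocorticoid of mice, is released from the adrenal cortex in a daily rhythm and under stress. It enters cells and binds both receptors, which rest in the cytoplasm in a complex with the chaperone Hsp90 and its partners, move into the nucleus and act there on transcription. In the forebrain the mineralocorticoid receptor binds the hormone with the higher affinity, and the glucocorticoid receptor is filled when hormone levels are high. The induced genes serve as common readouts of receptor activity in brain, although several of them also answer to other signals, such as p53 for Cdkn1a and zinc for the metallothioneins.

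The RNA came from prefrontal cortex of adult male mice, in dissections that per the paper take in neighbouring motor cortex. The mice were labelled as 12 weeks of age, which the methods give as their age when obtained, before habituation. Fyn-null mice (B6;129S7-Fyn tm1Sor/J, a constitutive disruption of the Src family kinase Fyn) and control mice (B6129SF2/J, with intact Fyn) received ethanol at 3 g/kg or saline intraperitoneally after daily habituation injections of saline, and tissue was taken 4 hours later. There were 4 groups, Fyn-null ethanol, Fyn-null saline, control ethanol and control saline, with 3 arrays in each, and every array held RNA pooled from 3 mice. Controls were bought as a separate stock and were not littermates, so that genotype and stock cannot be told apart, and with pools as replicates the p-values measure the spread between pools and not between mice. Expression is given as log2 RMA values, in which a difference of 1 is a change of 2-fold, and values of different probe sets are not on a common scale.

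Arrays correlated with each other at 0.982 to 0.997. Markers of cortical excitatory neurons, astrocytes and oligodendrocytes were measured in every group with 0 called between ethanol and saline, and the 3 measured markers of choroid plexus had a mean level of 6.02 to 6.24 in ethanol pools and 6.01 to 6.21 in saline pools. On the brighter Fyn probe set, Fyn-null saline replicate 4 by its label stood at 9.45, within the 9.31 to 9.70 of the other control pools, and control saline replicate 2 by its label stood at 8.74, within the 8.64 to 9.01 of the other Fyn-null pools. The labels were kept, and both pools are saline pools. Some of the results between or within genotypes are also given without them. The 3' to 5' signal ratio of the actin and GAPDH control probe sets, a measure of RNA integrity, was lower in ethanol pools (log2 mean 0.463, range 0.387 to 0.627) than in saline pools (0.770, range 0.542 to 0.991; two-sided exact permutation test, p = 0.00433).

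Over both genotypes, ethanol was followed by higher expression of 6 of the 8 induced genes, called at a limma adjusted p under 0.05 on the brightest probe set of each gene, and by lower expression of Nr3c1. By probe set, 12 of the 21 tested were called higher and 2 lower, against 2.58% higher and 4.22% lower among all 24770 probe sets tested. By gene the shares among all genes were 1.89% higher and 4.8% lower. Both receptors and the induced genes were chosen with earlier results of these data known, so their counts are no independent test. All 6 ethanol pools lay above all 6 saline pools on 9 of the 21 probe sets and below them on 1, against 1.32% above and 2.58% below among all probe sets. The median log2 difference of the 21 probe sets was 0.40, and that of all probe sets was -0.02. Without both pools of doubtful genotype 12 of the 21 probe sets were called, of 1309 among all. When that signal ratio entered the fit as a covariate, which itself differs between ethanol and saline, 5 were called, of 27 among all probe sets, in place of 14 of 1686. These 5 were the brighter probe set of Fkbp5, 2 of Tsc22d3, that of Sgk1 and the brighter one of Errfi1.

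**Figure D1:**
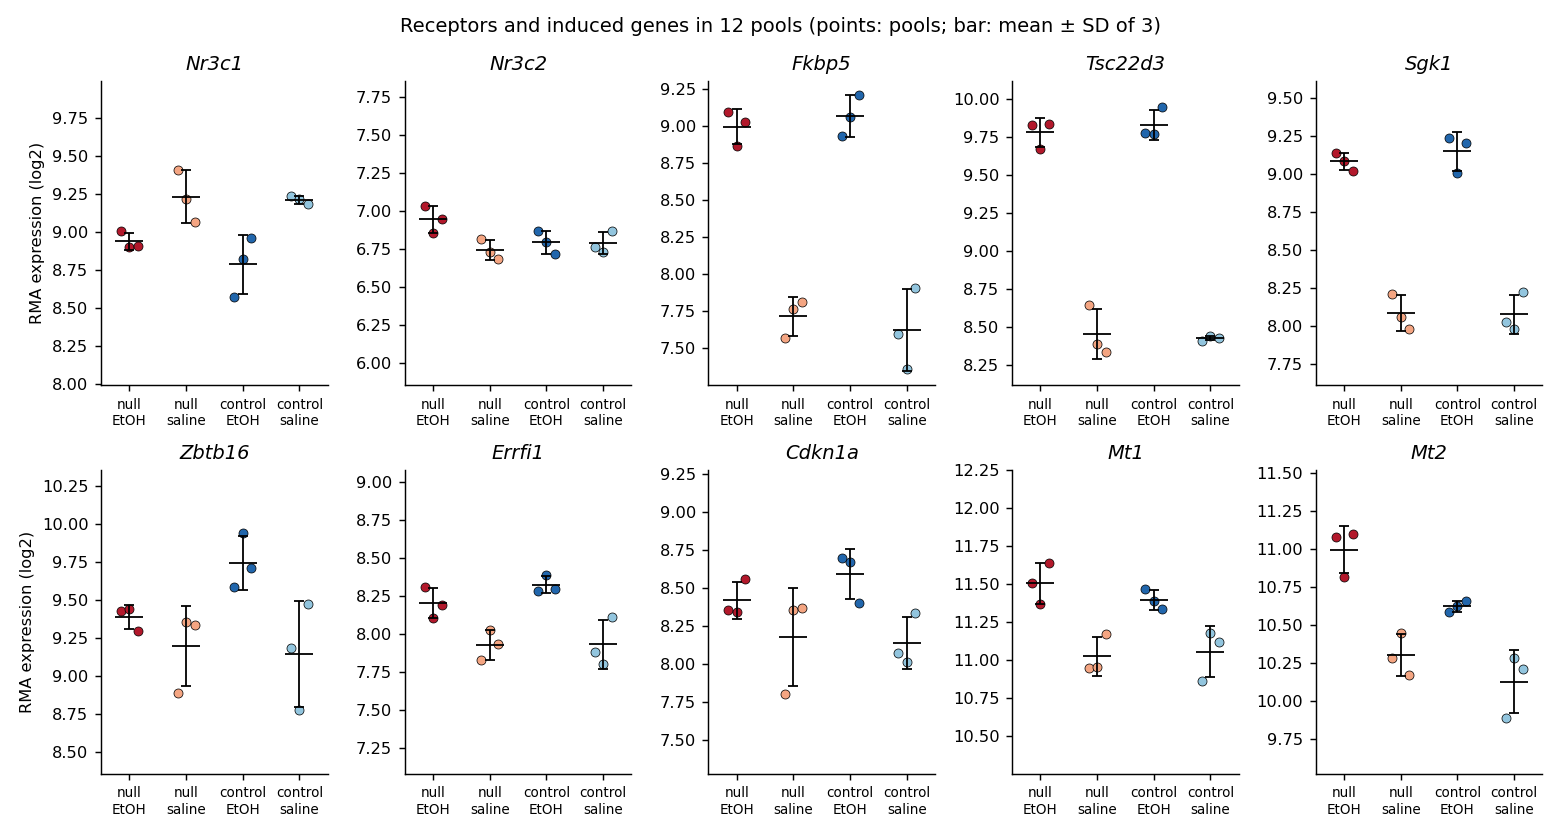
Expression (log2 RMA) of the probe set with the highest mean for each of the 10 genes in Fyn-null ethanol, Fyn-null saline, control ethanol and control saline pools; points are pools, bars the mean ± SD of 3 pools, and every axis spans at least 2 log2 units. Fkbp5, Tsc22d3 and Sgk1 form 2 separate levels by treatment, Nr3c1 lies lower after ethanol, and Nr3c2 stays between 6.68 and 7.03.

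Nr3c1 encodes the glucocorticoid receptor itself. On its brightest probe set (1421867_at) the values were 9.01, 8.90 and 8.91 in Fyn-null ethanol pools and 8.58, 8.82 and 8.96 in control ethanol pools, against 9.41, 9.22 and 9.06 in Fyn-null saline pools and 9.24, 9.22 and 9.19 in control saline pools. Every ethanol pool was below every saline pool, with the narrowest gap among Fyn-null pools. The difference was -0.36 (SE 0.076, 1.28-fold lower, adjusted p = 0.0161). The call was lost with the 3' to 5' covariate (adjusted p = 0.453), at a difference of -0.35 with a larger SE (0.13).

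The other probe sets of Nr3c1 did not all move alike. Probe set 1460303_at had 8.45, 8.62 and 8.78 as its lowest, median and highest value in ethanol pools and 8.69, 8.91 and 9.05 in saline pools, which overlap, and fell by 0.27 (adjusted p = 0.0425). When single pools were left out in turn, 1460303_at lost its call in 9 of 12 fits and 1421867_at kept its call in all 12. Probe set 1457635_s_at, whose suffix marks oligonucleotides shared with other transcripts, had a difference of -0.47 (SE 0.17, adjusted p = 0.114), with ethanol pools between 7.08 and 7.94. Probe set 1421866_at had a difference of 0.28 (SE 0.25, adjusted p = 0.540), and its saline pools spread widely, between 4.99 and 6.51. The remaining probe sets, 1431378_at and 1453860_s_at, had means of 3.72 and 3.25 and were not tested. In the mean of all tested Nr3c1 probe sets the difference was -0.21 (adjusted p = 0.157). In pooled tissue, fewer cells of a type and less RNA per cell cannot be told apart.

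Nr3c2 encodes the mineralocorticoid receptor, which in brain binds corticosterone as well as aldosterone. Its single probe set had 7.03, 6.85 and 6.95 in Fyn-null ethanol pools and 6.87, 6.79 and 6.71 in control ethanol pools, against 6.81, 6.73 and 6.68 in Fyn-null saline pools and 6.76, 6.73 and 6.87 in control saline pools. Treatments overlapped over both genotypes and separated only among Fyn-null pools. The difference over both genotypes was 0.10 (95% confidence interval -0.03 to 0.23, adjusted p = 0.322), and among Fyn-null pools it was 0.20 (adjusted p = 0.354).

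Fkbp5 encodes an immunophilin that joins the Hsp90 complex and lowers the affinity of the receptor for hormone, so that its induction closes a short feedback loop. On probe set 1416125_at it had 9.09, 8.87 and 9.02 in Fyn-null ethanol pools and 8.93, 9.06 and 9.21 in control ethanol pools, against 7.56, 7.76 and 7.81 in Fyn-null saline pools and 7.60, 7.36 and 7.91 in control saline pools. The lowest ethanol pool stood clear of the highest saline pool in both genotypes. The difference was 1.36 (SE 0.093, 2.57-fold, adjusted p = 4.5e-06).

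A second probe set of Fkbp5, 1448231_at, had 7.35, 7.44 and 7.32 in Fyn-null ethanol pools and 7.28, 7.75 and 8.12 in control ethanol pools, against 6.62, 6.71 and 6.70 in Fyn-null saline pools and 6.43, 6.42 and 6.39 in control saline pools. Treatments again did not overlap, and the control ethanol pools were the most spread of the 4 groups. It rose by 1.00 (SE 0.13, adjusted p = 0.00129) over both genotypes. The third probe set, 1447736_at, had a mean of 2.58 and was not tested.

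Tsc22d3 encodes GILZ, a leucine zipper protein that carries part of the anti-inflammatory action of glucocorticoids. Its brightest probe set (1420772_a_at) had 9.83, 9.67 and 9.84 in Fyn-null ethanol pools and 9.77, 9.77 and 9.94 in control ethanol pools, against 8.64, 8.39 and 8.33 in Fyn-null saline pools and 8.41, 8.44 and 8.43 in control saline pools. The pools of a treatment lay close together, and the treatments were more than a log2 unit apart. The difference of 1.36 (SE 0.065, 2.57-fold, adjusted p = 1.26e-07) had rank 3 by p-value among all 24770 probe sets. Probe set 1425281_a_at rose by 1.47 (SE 0.081, 2.76-fold, adjusted p = 5.78e-07) and also showed no overlap. Probe set 1425557_x_at, whose suffix marks oligonucleotides that may bind other transcripts, rose by 0.44 (SE 0.10, adjusted p = 0.0241), with overlapping treatments, and lost the call in 3 of 12 fits without single pools (adjusted p up to 0.0551). The dim probe set 1444365_at (mean 3.67) was not tested.

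Sgk1 encodes a serine/threonine kinase of the AGC family, cloned as a serum- and glucocorticoid-induced transcript, that acts on ion channels and on the ubiquitin ligase Nedd4l. It had 9.14, 9.09 and 9.02 in Fyn-null ethanol pools and 9.24, 9.01 and 9.21 in control ethanol pools, against 8.22, 8.06 and 7.99 in Fyn-null saline pools and 8.03, 7.98 and 8.23 in control saline pools. Both genotypes gave nearly the same 2 levels. The difference was 1.03 (SE 0.066, 2.05-fold, adjusted p = 2.65e-06).

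Promoter windows from RefSeq (build GRCm38.p6), which run from 250 bases before to 50 bases after an annotated transcription start, were found for 8 of the 10 genes. They were searched on both strands for the palindromic glucocorticoid response element written as AGAACA, 3 bases of any kind and TGTTCT, and for its core AGAACA alone, which every palindrome holds on both strands. The palindrome was in 3 of 32851 windows (0.00913%), and 1 of these was the window of an Sgk1 start on chromosome 10, plus strand. This window is shown because it holds the element, which is in capitals and begins 189 bases before the start.
Sgk1 chr10:21993640-21993939: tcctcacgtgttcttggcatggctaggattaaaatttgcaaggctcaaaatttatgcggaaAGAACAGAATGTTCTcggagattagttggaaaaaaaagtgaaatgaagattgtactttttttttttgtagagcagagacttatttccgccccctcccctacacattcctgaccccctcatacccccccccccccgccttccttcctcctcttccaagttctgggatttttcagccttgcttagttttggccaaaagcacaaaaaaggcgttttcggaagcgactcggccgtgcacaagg
The core alone was in 19.0% of all windows. It was also in 2 of the other 5 Sgk1 windows and in 1 of 3 Tsc22d3 windows, and it was in none of those of Fkbp5, Errfi1, Cdkn1a, Nr3c2, Mt1 and Mt2. A match is a run of letters and not a measured site, and which Sgk1 start was used in these pools was not measured.

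Zbtb16 encodes PLZF, a zinc finger repressor of transcription. On its brightest probe set (1439163_at) it had 9.42, 9.44 and 9.30 in Fyn-null ethanol pools and 9.59, 9.94 and 9.71 in control ethanol pools, against 8.89, 9.36 and 9.34 in Fyn-null saline pools and 9.18, 8.77 and 9.47 in control saline pools. Treatments overlapped over both genotypes and separated among control pools. The difference was 0.40 (SE 0.13, adjusted p = 0.0782), which was not called. The other probe sets of Zbtb16 were called. Probe set 1419874_x_at, whose suffix marks oligonucleotides that may bind other transcripts, rose by 0.37 (SE 0.068, adjusted p = 0.00777) with no overlap. Probe set 1427638_at rose by 0.46 (SE 0.12, adjusted p = 0.0342) with overlap. The call of 1427638_at was lost without both doubtful pools (0.42, adjusted p = 0.0751) and in 8 of 12 fits without single pools (adjusted p up to 0.0811). In the mean of all 3 probe sets the difference was 0.41 (adjusted p = 0.00407).

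Errfi1 encodes Mig-6, which binds and inhibits receptors of the EGF family. On 1416129_at it had 8.11, 8.29 and 8.39 as lowest, median and highest value in ethanol pools, against 7.80, 7.91 and 8.11 in saline pools. The ranges overlap narrowly, with the lowest ethanol pool at 8.109 and the highest saline pool at 8.110. Errfi1 rose by 0.33 on this probe set (SE 0.067, 1.26-fold, adjusted p = 0.0126). Probe set 1419816_s_at rose by 0.44 (SE 0.11, adjusted p = 0.0286) without overlap, and lost the call in 4 of 12 fits without single pools (adjusted p up to 0.0576).

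Cdkn1a encodes p21, an inhibitor of cyclin-dependent kinases. Its brighter probe set (1424638_at) had 8.34, 8.48 and 8.70 as lowest, median and highest value in ethanol pools and 7.80, 8.20 and 8.36 in saline pools. The ranges overlap slightly and the difference of 0.35 (SE 0.11, 1.27-fold, adjusted p = 0.0665) was not called. Without Fyn-null saline replicate 4, a saline pool with a Cdkn1a value of 8.36, it was 0.40 and was called (adjusted p = 0.0419). On 1421679_a_at the difference was 0.10 (SE 0.13, adjusted p = 0.702).

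Mt1 and Mt2 encode metallothioneins, small cysteine-rich proteins that bind zinc and copper and are induced by metals, glucocorticoids and oxidative stress. Mt2 had 11.08, 10.82 and 11.10 in Fyn-null ethanol pools and 10.59, 10.62 and 10.66 in control ethanol pools, against 10.29, 10.45 and 10.17 in Fyn-null saline pools and 9.89, 10.28 and 10.21 in control saline pools. All ethanol pools were above all saline pools, and after ethanol all Fyn-null pools were above all control pools. Over both genotypes Mt2 rose by 0.59 (SE 0.083, 1.51-fold, adjusted p = 0.00174).

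Mt1 on 1422557_s_at, a probe set whose suffix marks sequence shared between transcripts, had 11.34, 11.43 and 11.64 as lowest, median and highest value in ethanol pools and 10.87, 11.04 and 11.18 in saline pools. It rose by 0.41 (SE 0.074, 1.33-fold, adjusted p = 0.00728) with no overlap. The dimmer probe set 1451612_at had a difference of 0.28 (SE 0.079, adjusted p = 0.0535), and was called without control ethanol replicate 4 (0.33, adjusted p = 0.0280). Mt1 and Mt2 are close paralogs, so signal shared between them is possible.

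The promoter windows of both metallothionein genes, which lie next to each other on mouse chromosome 8 (plus strand, GRCm38.p6), held several copies of the metal response element core, searched on both strands as TGCACNC and TGCGCNC, the letters read by the zinc-sensing factor MTF1. They are shown for the number of copies they hold, and the copies are in capitals.
Mt2 chr8:94172368-94172667: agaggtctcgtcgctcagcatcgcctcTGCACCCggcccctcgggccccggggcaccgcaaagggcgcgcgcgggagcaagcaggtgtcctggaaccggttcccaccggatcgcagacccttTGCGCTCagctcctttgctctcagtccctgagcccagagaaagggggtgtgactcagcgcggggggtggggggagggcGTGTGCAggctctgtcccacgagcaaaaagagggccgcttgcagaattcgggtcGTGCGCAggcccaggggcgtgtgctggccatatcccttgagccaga
Mt1 chr8:94178839-94179138: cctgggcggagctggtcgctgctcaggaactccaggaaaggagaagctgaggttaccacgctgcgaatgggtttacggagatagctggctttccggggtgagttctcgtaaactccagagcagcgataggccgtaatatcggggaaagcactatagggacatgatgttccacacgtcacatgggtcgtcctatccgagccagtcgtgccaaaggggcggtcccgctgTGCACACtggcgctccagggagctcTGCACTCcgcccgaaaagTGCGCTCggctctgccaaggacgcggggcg
The Mt2 window held 4 copies and the Mt1 window 3. Among all windows 1.97% held at least 3 copies and 0.517% at least 4, and single copies of the A form and of the G form were in 12.6% and 15.4%. The G form was also in the Nr3c2 window and in 1 Sgk1 window. Neither metallothionein window held the glucocorticoid core.

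**Figure D2:**
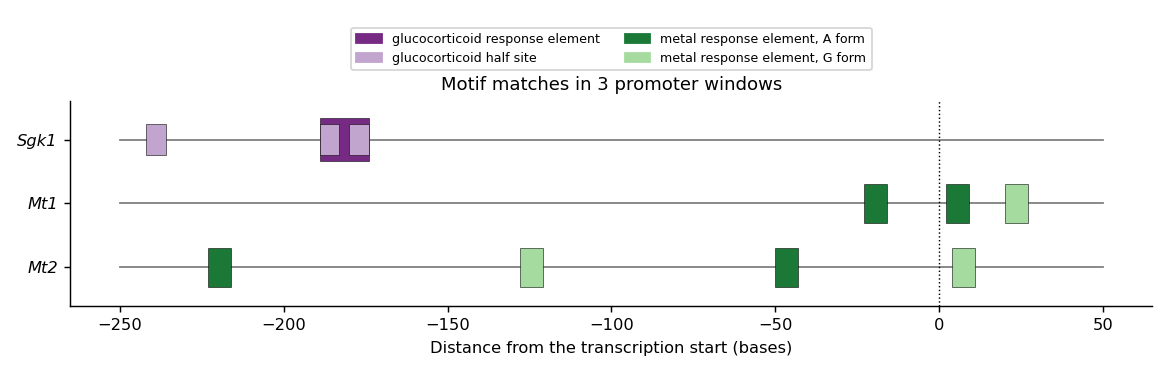
Motif matches drawn to scale along 3 promoter windows of 300 bases, by distance in bases from the transcription start (dotted line); boxes are matches on either strand. The Sgk1 window holds the palindromic glucocorticoid element 189 bases before the start, and the Mt1 and Mt2 windows hold 3 and 4 metal response elements.

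Within genotypes, with 3 pools on each side, fewer probe sets passed the test. In Fyn-null mice 5 of the 21 probe sets were called higher and 0 lower, against 0.254% higher and 0.145% lower among all probe sets tested (limma; 11 higher and 2 lower at an unadjusted p under 0.05, which 11.7% of all probe sets had). In control mice 6 were called higher and 0 lower, against 0.509% higher and 0.925% lower (15 higher and 3 lower at an unadjusted p under 0.05, which 18.9% of all probe sets had). Without both pools of doubtful genotype the counts were 4 in Fyn-null and 5 in control mice, of 54 and 147 among all. Fkbp5 (1416125_at) rose by 1.28 in Fyn-null mice and by 1.45 in control mice (adjusted p = 0.00104 and 0.000422). Tsc22d3 (1420772_a_at) rose by 1.32 in Fyn-null and 1.40 in control mice, and Sgk1 by 1.00 in Fyn-null and 1.07 in control mice, all called.

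Mt2 was called in Fyn-null mice (0.69, SE 0.12, adjusted p = 0.0250) and not in control mice (0.49, SE 0.12, adjusted p = 0.0586). Its call in Fyn-null mice was lost without both doubtful pools (0.63, adjusted p = 0.0898), without Fyn-null ethanol replicate 1 or 3 (adjusted p = 0.101 and 0.148) and without Fyn-null saline replicate 2 or 4 (adjusted p = 0.0741 and 0.0804). Zbtb16 (1427638_at) was called in control mice (0.71, adjusted p = 0.0346), where without both doubtful pools it was 0.64 (adjusted p = 0.0959), and had 0.22 in Fyn-null mice (adjusted p = 0.609). The second Fkbp5 probe set rose by 1.30 in control mice (adjusted p = 0.00295) and had 0.70 in Fyn-null mice (adjusted p = 0.0836). Nr3c1 on its brightest probe set had -0.29 in Fyn-null mice (adjusted p = 0.316) and -0.43 in control mice (adjusted p = 0.0736), not overlapping in either genotype, and in control mice it was called without control ethanol replicate 4 (-0.51, adjusted p = 0.0499).

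**Figure D3:**
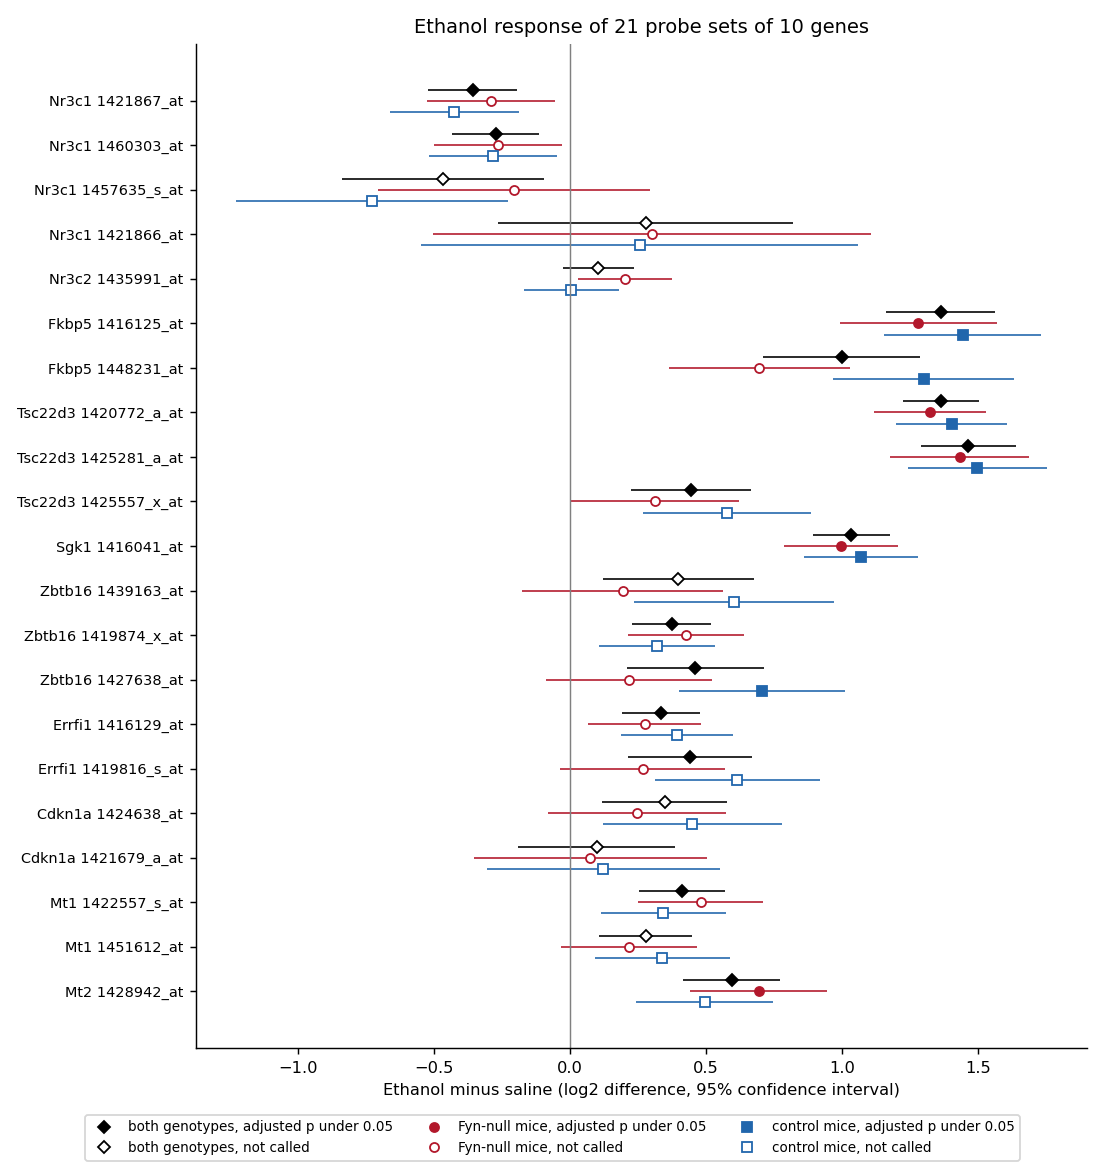
Log2 difference of ethanol minus saline with its 95% confidence interval for each of 21 probe sets, over both genotypes (diamonds), in Fyn-null mice (circles) and in control mice (squares); filled symbols have an adjusted p under 0.05. Over both genotypes, the differences of Fkbp5, of 2 probe sets of Tsc22d3 and of Sgk1 stand apart from the others. Of the 4 Nr3c1 probe sets 3 lie below 0.

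The question whether the ethanol response differs with genotype was put to the interaction, the Fyn-null response minus the control response. Of the 21 probe sets 0 were called in limma, as were 0% of all probe sets, and 2 had an unadjusted p under 0.05 (4.13% of all). For Tsc22d3 the interaction was -0.08 (95% confidence interval -0.37 to 0.21), for Sgk1 -0.07 (-0.37 to 0.22) and for Fkbp5 on 1416125_at -0.16 (-0.57 to 0.24). Each interval spans both directions, and equal responses are not shown by it. Without both doubtful pools the interaction of Tsc22d3 was -0.15. That of Sgk1 lay between -0.15 and -0.01 over 21 alternatives, the fit without those pools among them.

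The 2 probe sets under 0.05 were 1448231_at of Fkbp5 (-0.60, SE 0.22, adjusted p = 0.992) and 1427638_at of Zbtb16 (-0.49, SE 0.20, adjusted p = 0.992). On these 2 probe sets the smaller response was that of Fyn-null mice, whereas on 1419874_x_at of Zbtb16 the response was 0.43 in Fyn-null mice and 0.32 in control mice (interaction 0.11, adjusted p = 0.992). Without both doubtful pools they were -0.60 and -0.44 (adjusted p = 0.935 for each), whereas the brighter Fkbp5 probe set had 0.02. For Mt2 the interaction was 0.20 (95% confidence interval -0.16 to 0.55). Without both doubtful pools the Mt2 interaction was 0.06, the lowest of its 21 alternatives.

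After ethanol, Fyn-null and control pools were compared directly, and 0 of the 21 probe sets were called, as were 0% of all (limma). Without adjustment 3 had a p under 0.05, where 13.6% of all probe sets did, a share near that of these genes. Mt2 was 0.37 higher in Fyn-null than in control ethanol pools (SE 0.12, adjusted p = 0.200), and the groups did not overlap. The probe sets of Zbtb16 did not share a sign, with -0.45 on 1427638_at (SE 0.14, adjusted p = 0.206) and -0.36 on 1439163_at (adjusted p = 0.384), again without overlap, and 0.03 on 1419874_x_at (adjusted p = 0.927), with overlap. The third probe set with an unadjusted p under 0.05 was 1448231_at of Fkbp5 (-0.34, adjusted p = 0.348). With array weights 6 of the 21 were called, beside 3975 of all probe sets. Without both doubtful pools, or with only the compared groups fitted, 0 of the 21 were called. Some of all probe sets were called in these fits, as the last section gives.

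After saline 0 of the 21 probe sets were called between Fyn-null and control pools, as were 0% of all, and 0 had an unadjusted p under 0.05 (limma). On 1448231_at of Fkbp5 the Fyn-null pools, at 6.62 to 6.71, were all above the control pools, at 6.39 to 6.43 (0.26, adjusted p = 1.00). Both doubtful pools are in this comparison. Without them the Fyn-null pools had 6.62 and 6.71 and the control pools 6.43 and 6.39, which was again not called (adjusted p = 0.805).

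The strongest responders had a simple order of levels over the 4 groups. Tsc22d3 averaged 9.78 ± 0.10 in Fyn-null ethanol and 9.83 ± 0.10 in control ethanol pools, against 8.46 ± 0.17 in Fyn-null saline and 8.42 ± 0.01 in control saline pools (SD, n = 3 each), where neighbours within a treatment did not differ beyond their spread. Sgk1 averaged 9.08 ± 0.06 in Fyn-null ethanol and 9.15 ± 0.13 in control ethanol pools, against 8.09 ± 0.12 in Fyn-null saline and 8.08 ± 0.13 in control saline pools. Mt2 differed from this order in that its ethanol groups stood apart, with 11.00 ± 0.16 in Fyn-null ethanol and 10.62 ± 0.04 in control ethanol pools, against 10.30 ± 0.14 in Fyn-null saline and 10.13 ± 0.21 in control saline pools.

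Taking each of the 8 induced genes relative to its mean over the 12 pools, the average was between 0.26 and 0.40 in ethanol pools and between -0.47 and -0.23 in saline pools. The lowest ethanol pool was Fyn-null ethanol replicate 2, which also had the lowest 3' to 5' ratio of the 12 pools (0.387). The highest saline pool was control saline replicate 3, which had the highest ratio (0.991). Markers of endothelial cells moved in the opposite direction to the induced genes. Of 5 measured, 4 were called lower after ethanol (Cldn5 -0.64, Flt1 -0.41, Slco1c1 -0.62 and Tek -0.92) and Pecam1 was not (-0.08, adjusted p = 0.626), and their mean level was 6.63 to 7.01 in ethanol pools and 7.25 to 7.46 in saline pools. With the 3' to 5' covariate 0 of the 5 were called, at a median of -0.58 in place of -0.62. Of the other marker lists 1 of 6 microglial genes and the 1 measured blood gene were called lower and 1 of 2 striatal genes higher, where the blood and striatal calls were lost in 5 and 7 of 12 fits without single pools. Nr3c1 and these markers were thus both lower in the same pools. The part of endothelial RNA and of RNA integrity in the differences of Nr3c1 and the induced genes was not tested beyond the covariate above.

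**Figure D4:**
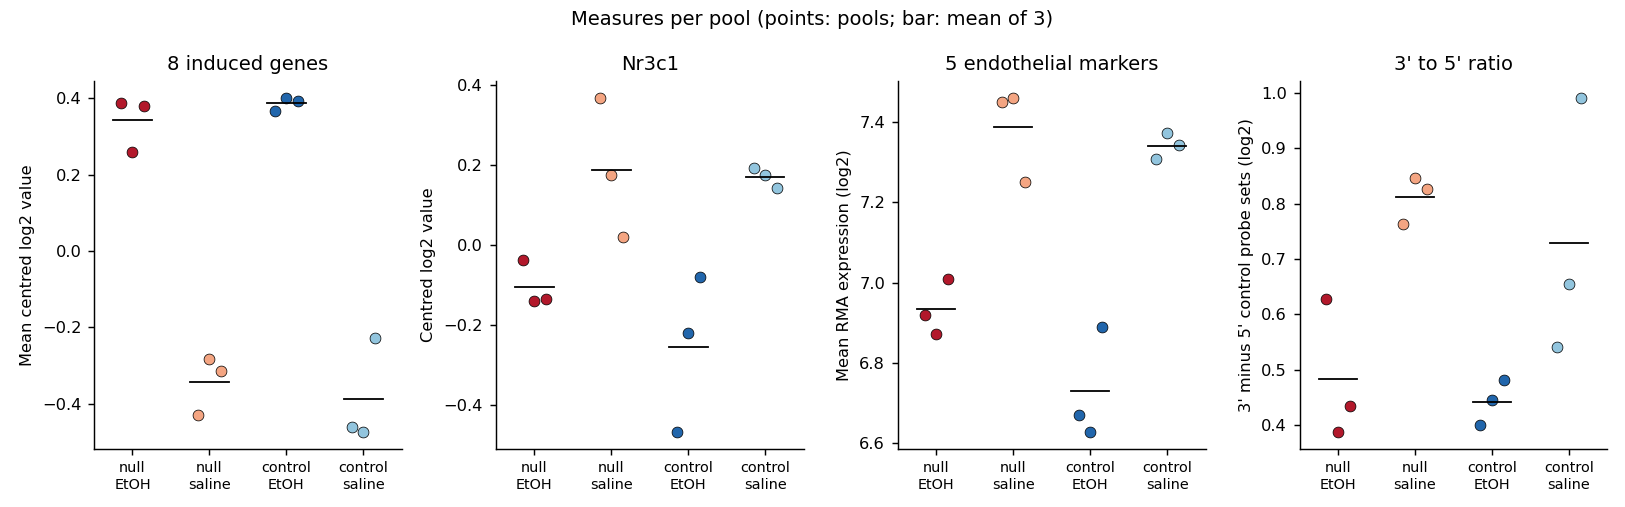
Measures in each pool by group, with points for pools and a bar for the mean of 3: the mean of 8 induced genes and Nr3c1, each relative to its mean over 12 pools, the mean level of 5 endothelial markers, and the 3' to 5' ratio of control probe sets, all in log2 units. Induced genes separate by treatment, Nr3c1 and endothelial markers separate in the opposite direction, and the ratio is lower in most ethanol pools with overlap.

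The genes whose profile over the 12 pools was most like that of Fkbp5, by root mean square distance of centred log2 values among 12322 other genes, were Trp53inp1 (0.163), Tsc22d3 (0.172), Arrdc2 (0.178), Smim3 (0.210) and Sgk1 (0.226). Those nearest to Sgk1 were Smim3 (0.110), Pdk4 (0.132), Arrdc2 (0.135), Angptl4 (0.141) and Zfp189 (0.151). With 12 pools in 2 treatments this distance mainly reflects a similar difference between ethanol and saline.

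Of 35 other measured genes known as glucocorticoid-induced in brain or other tissues, 17 were called higher after ethanol over both genotypes and 0 lower (limma). Among all genes 1.89% were called higher and 4.8% lower. At an unadjusted p under 0.05 there were 19 higher and 1 lower, where 24.3% of all probe sets passed in either direction. The median difference was 0.25 against -0.04 for all genes. The list was chosen with earlier results of these data known, so its counts are no independent test. The genes called higher included Arrdc2, an arrestin domain protein (1.18, 2.27-fold), Pdk4, which restrains pyruvate dehydrogenase (1.10, 2.14-fold), Txnip, the thioredoxin-interacting protein (0.91, 1.87-fold), and Angptl4, an inhibitor of lipoprotein lipase (0.83, 1.78-fold). With the 3' to 5' covariate 6 of the 35 were called, and without both doubtful pools 16. Not every gene of this kind moved. Per1, a clock gene with glucocorticoid response elements, had -0.20 (adjusted p = 0.240), Dusp1, the MAP kinase phosphatase, -0.08 (adjusted p = 0.678) and Glul, glutamine synthetase, 0.09 (adjusted p = 0.369).

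**Figure D5:**
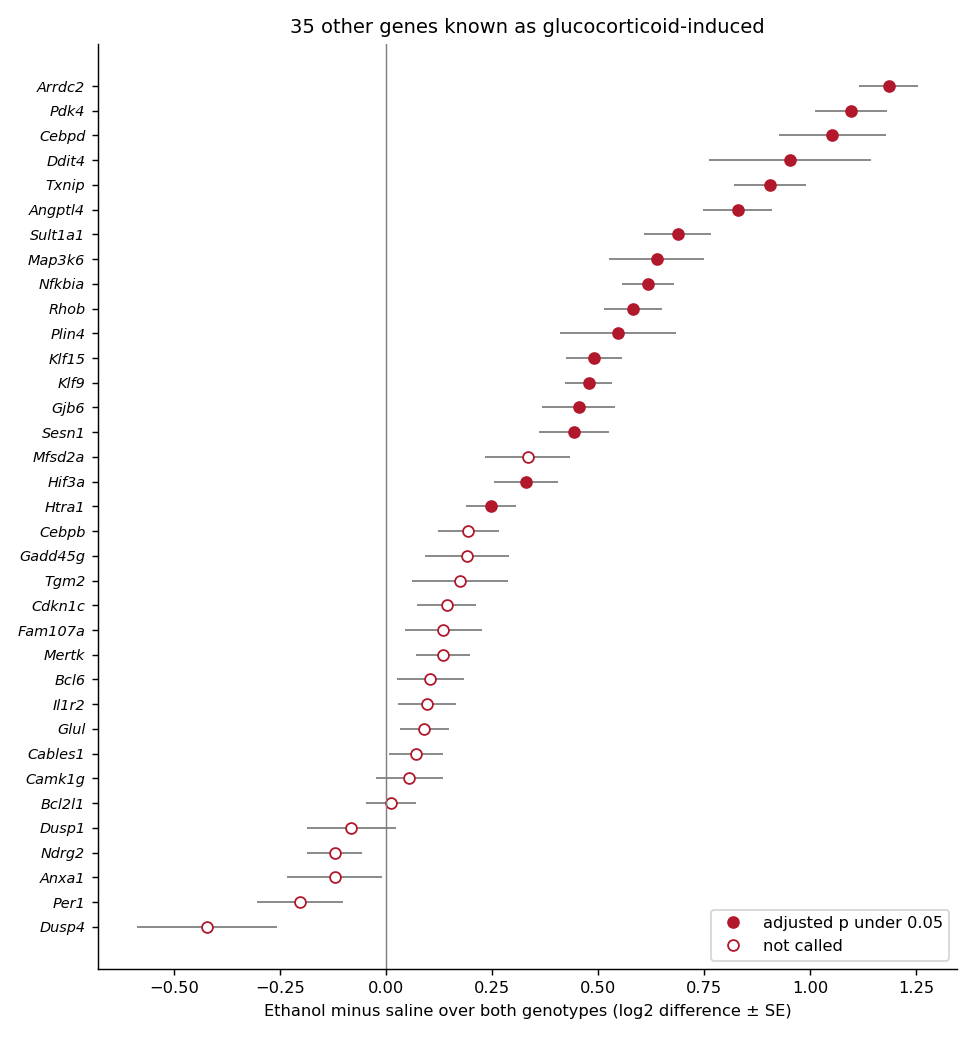
Log2 difference of ethanol minus saline over both genotypes (point) and its SE (bar) for 35 other genes known as glucocorticoid-induced, sorted by size; filled points have an adjusted p under 0.05. Arrdc2, Pdk4, Cebpd and Ddit4 head the list, and 5 of the 35 lie below 0, none of them called.

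Genes acting on the receptors were counted in the same way, beside 1.89% of all genes called higher and 4.8% lower. An unadjusted p under 0.05 was found for 24.3% of all probe sets. Of 19 chaperones and FKBP proteins, among them Hsp90 partners of the receptors and FKBP proteins outside that complex, 0 were called higher and 2 lower (0 and 8 at an unadjusted p under 0.05), Hspa4 (-0.27, adjusted p = 0.0131) and Stip1 (-0.22, adjusted p = 0.0474), with a median of -0.09. Of 16 coregulators 2 were called lower, Smarca4 (-0.30) and Crtc2 (-0.23). Stip1 and Crtc2 lost the call in 10 and 6 of 12 fits without single pools (adjusted p up to 0.0695 for Crtc2). Of 4 genes of corticosteroid metabolism and transport, Abcb1a, which encodes the efflux pump P-glycoprotein of the blood-brain barrier and so is itself expressed in endothelial cells, fell by 0.36 (adjusted p = 0.0112). Of 5 genes of CRH and related peptides Crhr1, the main CRH receptor of cortex, fell by 0.22 (adjusted p = 0.0310), a call lost in 10 of 12 fits without single pools (adjusted p up to 0.0763). The steroid receptors Pgr and Esr1 had -0.07 and -0.03 and were not called, also without adjustment.

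Partners and relatives of the induced genes mostly did not pass the test. The shares to set beside them are again 1.89% of all genes called higher and 4.8% lower. At an unadjusted p under 0.05 the share was 24.3% of all probe sets. Of 14 genes of metal handling 0 were called in limma (3 at an unadjusted p under 0.05), and those with the smallest p were Slc30a1, a zinc exporter induced by MTF1 (0.21, adjusted p = 0.0658), and Mtf1 itself (-0.21, adjusted p = 0.189). Of 11 p53 targets 2 were called higher, Trp53inp1 (1.34, 2.53-fold) and Pmaip1 (0.69, 1.62-fold), which lost the call in 6 of 12 fits without single pools (adjusted p up to 0.0743). Of 7 ErbB receptors and ligands, the targets of Errfi1 among them, Erbb3 fell by 0.38, and of 12 SGK and AKT kinases and partners Akt2 fell by 0.32, a call lost without control saline replicate 3 (adjusted p = 0.0548) or Fyn-null ethanol replicate 2 (adjusted p = 0.0634). Of 12 relatives of Tsc22d3, Cdkn1a and Zbtb16, 0 were called in limma (3 at an unadjusted p under 0.05), and Cdkn2d (0.16, adjusted p = 0.0844) and Tsc22d1 (0.15, adjusted p = 0.118) had the smallest p.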

How the data were processed

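Expression was measured on 12 Affymetrix whole-genome mouse arrays, 1 for each pool of 3 mice. Before deposit the authors turned probe intensities into log2 values with affy and RMA, per the submitters' processing notes. A step for hybridization batch effects is named in the methods, but whether it was applied to the deposited values, and the versions of these tools, were not given in the sources used here. Arrays have no read depth, and their number limits the precision.

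After removal of 64 control probe sets and of the dimmest 45% of the others by mean, 24770 remained. The brightest remaining probe set, by mean, represented its gene. Names came from the annotation of the platform, updated by gene ID to RefSeq (GRCm38.p6). Linear models were fitted with lmFit and eBayes of limma (version 3.58.1, R 4.3.3, two-sided), with genotype and treatment as additive terms for the difference over both genotypes and with 4 group means for the other comparisons. Calls were made at a Benjamini-Hochberg adjusted p under 0.05 over all probe sets tested, and the fit was tested on simulated data. All probe sets of the 10 genes are described, and other genes are named by their smallest p within lists or by likeness to Fkbp5 and Sgk1; Per1, Dusp1, Glul, Cebpd and Ddit4 were picked after their values were seen. The genes and lists were chosen with earlier results of these data known. Replicate numbers recur between groups without a sign of pairing: only 3 of 13 same-numbered pairs had deviations from the group means that correlated above 0.1. Promoter sequences are those of RefSeq.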

Additional observations from a re-analysis of the deposited data

How the results depend on the processing

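Alternatives were no filter, a filter on the lowest 60%, a further quantile normalization, eBayes with trend and robust, array weights, a replicate block, the 3' to 5' signal ratio as a covariate, only the groups compared, both doubtful pools left out, each pool left out in turn and averaging the probe sets of each gene. Over both genotypes 14 probe sets of these genes were called, 9 with the replicate block and 5 with the covariate, against 710 and 27 of all probe sets in place of 1686 (16 in control and 15 in Fyn-null mice with the covariate). The cause was not tested, but the covariate differs between the treatments. Leaving out pools in turn gave 11 to 15. In control mice 10 were called after quantile normalization and 11 with array weights (412 and 506 of all probe sets; range 5 to 8 without single pools, 6 with all), and in Fyn-null mice 13 with array weights (range 4 to 6, 5 with all). Array weights also called 6 after ethanol between genotypes, where other settings called 0. The estimation of these weights stopped short of its convergence tolerance in limma. Among all probe sets array weights called 2781 in Fyn-null mice in place of 99 (quantile normalization 150) and 3975 after ethanol in place of 0, the block 36 and 26 in control and Fyn-null mice, the compared groups alone 18 in control mice in place of 355 and 193 after ethanol, and the fit without both doubtful pools 147, 54, 260 and 44 (control, Fyn-null, after ethanol, after saline). Without single pools the calls among all probe sets ranged from 770 to 1625 over both genotypes, 76 to 410 in control mice, 33 to 145 in Fyn-null mice and 0 to 35 after ethanol. The paired fit changed the call of Nr3c1 over both genotypes (adjusted p = 0.0577) and of Mt2 in Fyn-null mice (adjusted p = 0.125), and no other call on the brightest probe set of each gene. Fkbp5, Tsc22d3 and Sgk1 kept their direction and call under all 21 alternatives over both genotypes, with differences of 1.18 to 1.67, 1.09 to 1.41 and 0.99 to 1.15. Mt1 and Mt2 lost the call over both genotypes with the covariate alone (adjusted p = 0.196 and 0.0614). No called difference of these genes changed sign. With promoter matches counted only before the annotated start, the glucocorticoid palindrome stayed in 3 windows (0.00913%) and the core was in 16.1%. Mt2 kept 3 metal response elements and Mt1 1, where 1.26% of windows held at least 3. Which metallothionein starts were used in these pools was not measured.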
